A study of Mus musculus with 8 samples.

Results

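The genes of vitamin A absorption and retinoid metabolism were followed in RNA sequencing of small intestinal organoids, that is, epithelial cultures that grow in Matrigel from isolated crypts. The set was a list of 6 genes written down by name: Rbp2, Bco1, Lrat, Isx, Rdh7 and Aldh1a1. A value could be given to 4 of these 6, out of 13857 genes with a value in all. Lrat (GRCm38 chr3:82892579-82903973) and Isx (GRCm38 chr8:74873173-74893506) could not be given a value by the rule used and were not analysed here. Since only 57.3% of 22028 annotated protein-coding genes had a row, this says nothing about whether they were expressed. There were 4 organoid samples labelled WT and 4 labelled MG53-TG, the latter from mice with global overexpression of MG53, an E3 ligase of the TRIM family and membrane repair protein encoded by Trim72, and the former from wild type littermates. The labels give no treatment for any sample, and the same growth medium for all. The study's text also names a pair of genotypes on an Lgr5 reporter background for part of its organoid data, whereas the labels name WT and MG53-TG only. The age of the mice and the promoter of the transgene were not given in the sources used here. Neither was it stated whether the 4 samples of a group came from separate animals or cultures, so p-values measure only the spread between these samples, which may be technical.

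Dietary vitamin A reaches the enterocyte as retinol, released from retinyl esters in the gut lumen, or as provitamin A carotenoids such as beta-carotene, which are taken up with the help of scavenger receptors. Inside the enterocyte, BCO1 cleaves beta-carotene to retinal, short-chain dehydrogenases and alcohol dehydrogenases interconvert retinal and retinol, RBP2 carries both in the cytosol, and LRAT esterifies retinol, mostly for export in chylomicrons. A smaller part of retinal is oxidized irreversibly to retinoic acid by the ALDH1A enzymes, and retinoic acid acts through RAR and RXR nuclear receptors. ISX is a homeobox repressor of the carotenoid uptake and cleavage genes that is itself induced by retinoic acid, and so closes a feedback loop on absorption.

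The values are FPKM, that is, fragment numbers scaled by transcript length and by the number of fragments mapped in the sample, which can be set side by side between genes. The depth of each sample is unknown, and FPKM summed over all transcription starts ranged from 269837 to 273797 in WT and from 269094 to 284330 in MG53-TG samples. Trim72 was without an entry in the 4 WT samples and measured 16.4, 27.4, 31.9 and 36.5 FPKM in the MG53-TG samples, which matches the labels. MG53-TG samples 3 and 4 lay apart from MG53-TG samples 1 and 2. Their median absolute difference over 10513 genes was 0.301 to 0.353 on the log2 scale, against 0.162 and 0.165 within these pairs and 0.147 to 0.190 among WT samples. Fold changes and relative levels of the set are therefore also given without samples 3 and 4. Over all 10846 genes tested, 44.4% differed between the groups in limma (adjusted p of at most 0.05), with 1684 genes higher and 3136 lower in MG53-TG. The split turned to 2220 higher and 2197 lower when samples were scaled by median of ratios, which moved the median of all genes from -0.17 to -0.01 on the log2 scale, a shift of 0.16.

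All 4 retinoid genes with a value were higher in MG53-TG than in WT organoids, by 7.55-fold to 23.2-fold in FPKM. Of all genes tested, 15.5% were called higher and 15.8% had every MG53-TG sample above every WT sample, out of 44.6% whose groups did not overlap in either direction. Since the genes were listed with results of these data known, that share is background for the count and not a test of the list. The median log2 fold change of the 4 genes was 3.69, beside -0.17 over all genes tested. None of the 4 passed the filter on low values through MG53-TG alone, as all had a WT mean above the minimum of 0.5 FPKM. In these bulk samples, more cells that express a gene and more RNA per cell cannot be told apart.

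Rbp2 (ENSMUSG00000032454, GRCm38 chr9:98486115-98509781, plus strand) encodes the cellular retinol-binding protein of the absorptive cell, which hands retinol to esterification and retinal to reduction. Its level was 11.7, 11.6, 12.5 and 10.1 FPKM in WT samples 1 to 4, and 128, 123, 190 and 217 FPKM in MG53-TG samples 1 to 4. The WT samples lay within a narrow band, and every MG53-TG sample stood far above it, with samples 3 and 4 the highest. The mean rose from 11.5 ± 0.973 to 165 ± 46.5 FPKM (SD over 4 samples each), which on log2(FPKM + 1) is an increase of 3.69 (SE 0.19, adjusted p = 3.16e-06 in limma), the log2 fold change used throughout. The increase of Rbp2 ranked 32 among all genes tested. It was 3.35 on the log2 scale without MG53-TG samples 3 and 4, and 4.04 without samples 1 and 2.

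Bco1 (ENSMUSG00000031845, GRCm38 chr8:117095854-117133720, plus strand) encodes beta-carotene oxygenase 1, which splits beta-carotene at its central double bond to retinal. It was the lowest of the 4 genes in both groups, with 2.08, 1.70, 1.55 and 2.31 FPKM in the WT samples and 9.6, 10.6, 19.9 and 17.7 FPKM in the MG53-TG samples. The groups did not overlap, and MG53-TG samples 3 and 4 again lay above samples 1 and 2. The mean rose from 1.91 ± 0.349 to 14.4 ± 5.13 FPKM (SD over 4 samples each), a log2 difference of 2.35 (SE 0.23, adjusted p = 0.000101 in limma). Its rank was 140 among all genes tested, and its log2 fold change was 1.93 without MG53-TG samples 3 and 4.

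Rdh7 (ENSMUSG00000040134, GRCm38 chr10:127884028-127888817, minus strand) belongs to a cluster of short-chain dehydrogenases that act on retinol and steroids. It measured 4.48, 5.41, 4.8 and 3.12 FPKM in the WT samples, and 44.9, 47.1, 92.0 and 110 FPKM in the MG53-TG samples. Sample pairs 1 and 2 against 3 and 4 of the MG53-TG group were separated more widely here than for Rbp2. The mean rose from 4.45 ± 0.968 to 73.5 ± 32.7 FPKM (SD over 4 samples each), a log2 difference of 3.68 (SE 0.30, adjusted p = 3.74e-05 in limma), and 3.13 without MG53-TG samples 3 and 4. The coding sequence of Rdh7 shares 85.9% to 87.1% of its aligned bases with Rdh1, Rdh9, Rdh16 and Rdh19 in the GENCODE annotation, and runs of up to 133 identical bases with Rdh1 and Rdh19, so that reads may be split between these genes and the level of each is uncertain. The relatives with a value were far lower than Rdh7 in the MG53-TG samples, at 2.42 to 5.40 FPKM for Rdh9 at most 0.12 FPKM for Rdh1, and 0.623 and 1.69 FPKM for Rdh19 in the 2 MG53-TG samples where it had a value.

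Aldh1a1 (ENSMUSG00000053279, GRCm38 chr19:20492715-20643465, plus strand) encodes a retinaldehyde dehydrogenase that makes retinoic acid. It had the largest change of the 4 genes. Its FPKM was 6.49, 7.55, 9 and 8.05 in the WT samples, and 88.5, 97.0, 258 and 278 in the MG53-TG samples. The pair of high MG53-TG samples stood well above the low pair, which itself stood far above every WT sample. The mean rose from 7.77 ± 1.05 to 180 ± 101 FPKM (SD over 4 samples each), a log2 difference of 4.18 (SE 0.38, adjusted p = 5.98e-05 in limma), rank 20 among all genes tested. Without MG53-TG samples 3 and 4 it was 3.42, and without samples 1 and 2 it was 4.94. Only a transcription end of Aldh1a1 had a row, at GRCm38 chr19:20642894-20643465, the last exon. Its coding sequence shares 91.6% of bases with its neighbour Aldh1a7, with a run of 100 identical bases, so reads may have been split between them.

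**Figure D1:**
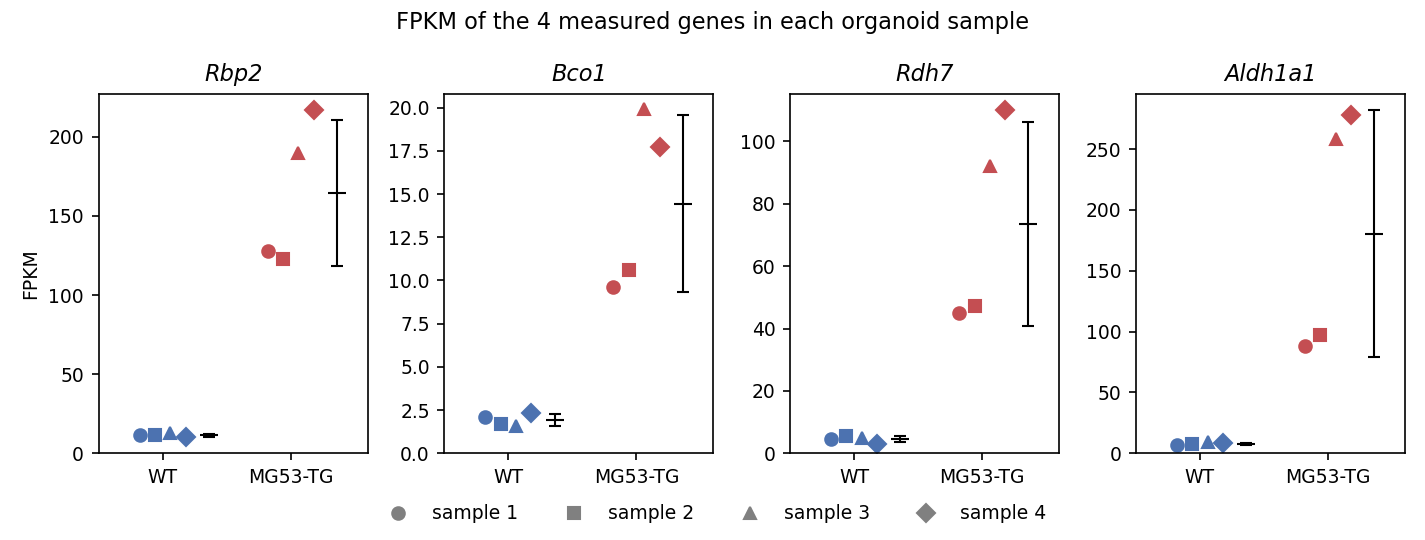
FPKM (linear axes from 0, a scale of its own for each gene) of Rbp2, Bco1, Rdh7 and Aldh1a1 in 4 WT (blue) and 4 MG53-TG (red) samples, with marker shapes for the sample number and a black line with bars for the group mean ± SD. Every MG53-TG value lies above every WT value, and MG53-TG samples 3 and 4 lie above samples 1 and 2 for each gene.

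The exact two-sided permutation test of the FPKM gave p = 0.0286 for each of the 4 genes, the smallest value that 4 against 4 samples allow. Log2 fold changes of Rbp2 and Rdh7 differed by 0.01, whereas that of Bco1 differed by -1.83 from that of Aldh1a1 and by -1.33 from that of Rdh7. These differences between members (6 pairs) are given as descriptions. In WT samples, Rbp2 led the order of levels, followed by Aldh1a1, Rdh7 and Bco1. The log2 level of Rbp2 was above that of Aldh1a1 by 0.30 to 0.76 in each WT sample. In MG53-TG samples, this difference ranged from -0.44 to 0.52, so the order of Rbp2 and Aldh1a1 was not the same across samples: Rbp2 was higher in samples 1 and 2, and Aldh1a1 was higher in samples 3 and 4. Rdh7 stayed below both and Bco1 below Rdh7 in all 8 samples.

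Since these genes are expressed by absorptive cells, markers of the cell types in the cultures were read beside them. Of 27 enterocyte markers, which include brush border enzymes, sugar and peptide transporters and apolipoproteins, 26 were higher in MG53-TG and 1 (Dpp4) was not called. Their median log2 fold change was 2.61 (-0.17 over all genes tested), and their summed FPKM was 1539 to 1737 in WT and 13763 to 15771 in MG53-TG samples. Rbp2 had a larger log2 fold change than 23 of the 27 markers, Aldh1a1 than 24, Rdh7 than 22 and Bco1 than 12. For the lists that follow, the background over all genes tested was 15.5% higher and 28.9% lower. Stem cell markers were lower for 6 of 8 genes and higher for 0 (median -1.57, summed FPKM 512 to 701 in WT and 58.3 to 317 in MG53-TG). Goblet cell markers were lower for 6 of 8 genes and higher for 0 (median -1.21, summed 781 to 893 in WT and 214 to 559 in MG53-TG). All 6 Paneth cell markers with a value were lower (median -3.02, summed 1228 to 1647 in WT and 258 to 459 in MG53-TG). Of 7 enteroendocrine markers with a value, 3 were higher (median 0.01, summed 226 to 282 in WT and 326 to 470 in MG53-TG). Of 8 mesenchyme and 8 immune markers, 5 each had a value, and they summed to 1.80 to 3.24 FPKM in WT and 1.31 to 5.58 FPKM in MG53-TG samples for mesenchyme, and to 3.87 to 9.37 FPKM in WT and 0.609 to 1.47 FPKM in MG53-TG samples for immune cells. Of 3 mesenchyme markers tested, 2 were higher. These were the collagens Col1a2 and Col3a1, which had no entry in WT samples and were at 0.739 to 2.07 and 0.904 to 1.62 FPKM in MG53-TG samples 2 to 4, with no value in sample 1. Since their WT means were under the filter, these collagens could only have differed upwards, as could the enterocyte marker Slc15a1 and the distal gene Slc51a (WT means of 0.355 and 0.24 FPKM). In turn, the Paneth marker Defa22 and the distal genes Slc10a2 and Fgf15 had MG53-TG means under the filter (0.0281, 0.188 and 0.0719 FPKM) and could only have differed downwards. The 1 immune marker tested, Cd68, was lower. Genes of the proximal small intestine (5 of 8 higher, 1 lower, median 0.94) and of the distal small intestine (2 of 7 higher, 3 lower, median 0.16) moved in both directions. The part of cell type makeup in the retinoid gene changes was not tested.

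**Figure D2:**
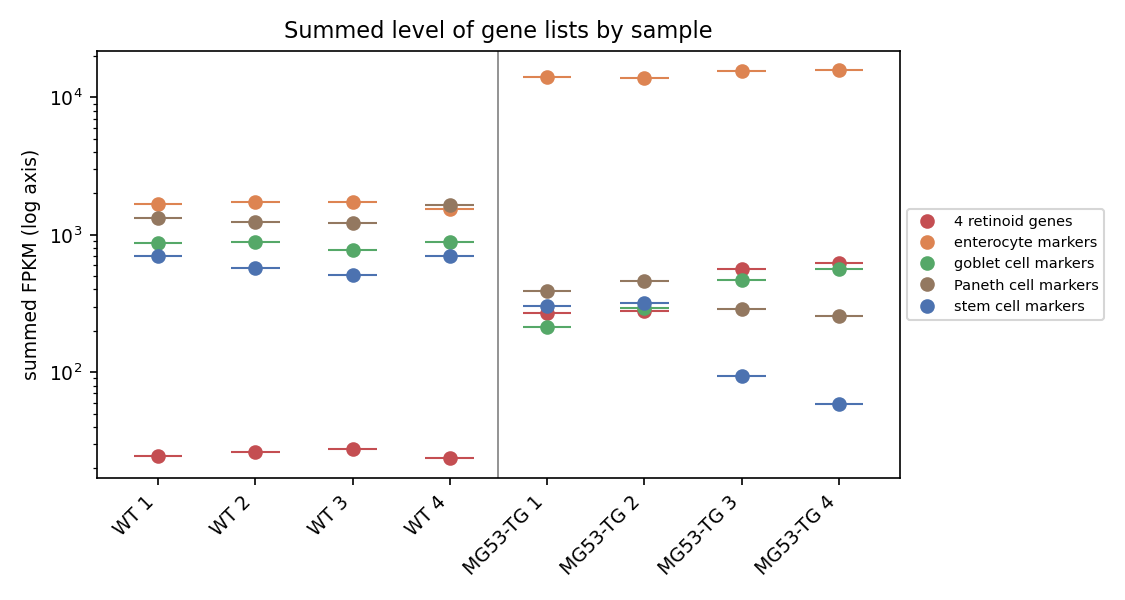
Summed FPKM (log axis) of the 4 retinoid genes and of enterocyte, goblet, Paneth and stem cell marker lists in each of the 8 samples, with 1 dot for each list and sample. The 4 retinoid genes sum to 23.6 to 27.8 FPKM in WT and 271 to 623 FPKM in MG53-TG samples, where the enterocyte markers are also higher and the other lists lower.

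The level of each gene was then set against the mean log2(FPKM + 1) of the 27 enterocyte markers of the same sample, to read whether it moved by more or less than absorptive markers as a whole. That mean itself was 4.52 ± 0.06 in WT and 7.14 ± 0.27 in MG53-TG samples (SD, n = 4 each), a difference of 2.62. Relative to it, Rbp2 went from -0.89 ± 0.16 to 0.19 ± 0.14, a difference of 1.08 on the log2 scale (exact two-sided permutation test, p = 0.0286). Rdh7 went from -2.10 ± 0.29 to -1.03 ± 0.38, a difference of 1.07 (exact permutation p = 0.0286), and Aldh1a1 from -1.40 ± 0.20 to 0.17 ± 0.61, a difference of 1.57 (exact permutation p = 0.0286). For these 3 genes, every MG53-TG sample lay above every WT sample also on this relative scale. Bco1 behaved otherwise: it went from -2.99 ± 0.16 to -3.25 ± 0.24, with overlapping groups and a difference of -0.26 (exact permutation p = 0.114). Without MG53-TG samples 3 and 4, where 4 against 2 samples allow no p below 0.133, the relative difference of Aldh1a1 was 1.04, that of Rbp2 0.97, that of Rdh7 0.75 and that of Bco1 -0.45. The relative values rest on the reference. With Vil1 alone, a structural protein of the brush border with a log2 fold change of 1.10, the differences were 2.59 for Rbp2, 2.58 for Rdh7 and 3.08 for Aldh1a1, and that of Bco1 turned to 1.25. With a pseudocount of 0.1 in place of 1, the difference of Bco1 was 0.00. With 6 genes of lipid handling left out of the markers, it was -0.07 (exact permutation p = 0.629), beside 1.27 for Rbp2, 1.26 for Rdh7 and 1.76 for Aldh1a1. With only markers averaging at least 10 FPKM, the difference of Bco1 was -0.38.

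**Figure D3:**
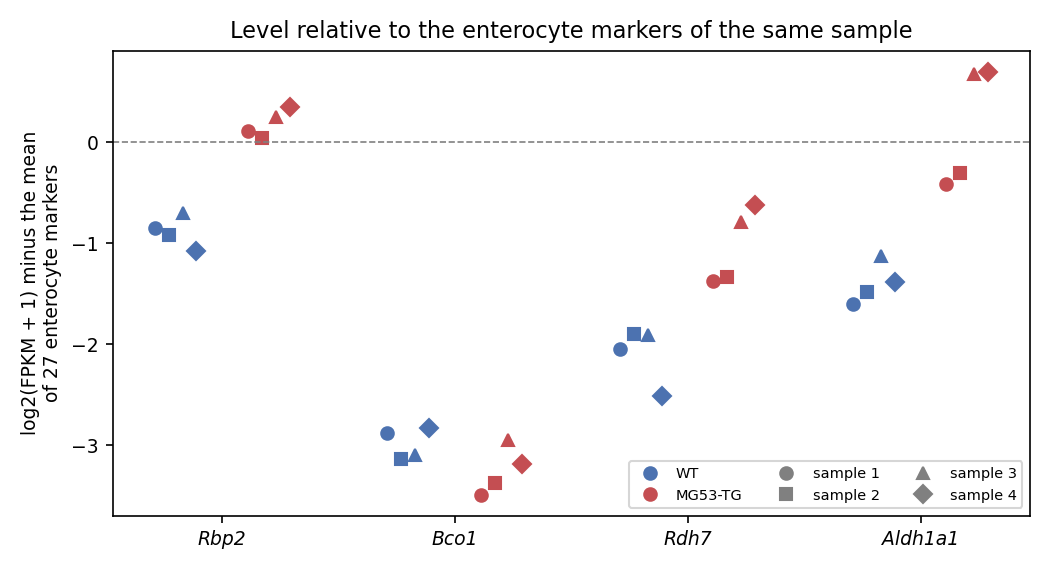
Log2(FPKM + 1) of each gene minus the mean of 27 enterocyte markers in the same sample, for 4 WT (blue) and 4 MG53-TG (red) samples, with the dashed line at equality. Rbp2, Rdh7 and Aldh1a1 lie higher in every MG53-TG sample than in any WT sample, and the Bco1 groups overlap.

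Transcript events of the members were described next, since the files give FPKM by transcription start, end and splice form. Rbp2 had 3 starts that match exons of the annotation. These were GRCm38 chr9:98486115-98486246, which begins at position -4422 from the RefSeq start, chr9:98490537-98490682, whose first base is the RefSeq start, and chr9:98491697-98491844, which lies 1160 bases downstream of it. The far upstream start took 3.42, 91.7, 90.6 and 33.0% of the FPKM of these 3 starts in WT samples 1 to 4, and 0, 90.6, 91.4 and 1.33% in MG53-TG samples 1 to 4. The start at the RefSeq position took nearly all of the rest of this annotated sum, with 96.0, 7.70, 8.80 and 66.3% in WT and 99.9, 9.07, 8.55 and 98.6% in MG53-TG samples. The downstream start stayed at or below 0.702% in each sample. Shares of the first and second start therefore switched between samples of the same group. No difference between groups was detected (exact permutation p = 0.571 and p = 0.543), but with shares this spread 4 against 4 samples cannot show that there was none. The sum of the starts and the single transcription end at chr9:98509527-98509781 separated the groups without overlap. The difference in the share at the RefSeq start was 9.33 percentage points (19.0 with the starts outside the annotation included), and changed sign when WT sample 2 or 3 or MG53-TG sample 1 or 4 was left out, with values from -5.97 to 26.4 over the 8 fits that leave out a sample. Start events were matched by the inner edge of their exon, and 2 further ones matched no exon end annotated for Rbp2 and are not in these shares. That at chr9:98489816-98489880 was listed in WT samples 1 and 4 and MG53-TG samples 1 and 2, at 2.19 to 23.4 FPKM. The other, at chr9:98490340-98490449, was listed in WT sample 2, at 4.73 FPKM.

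**Figure D4:**
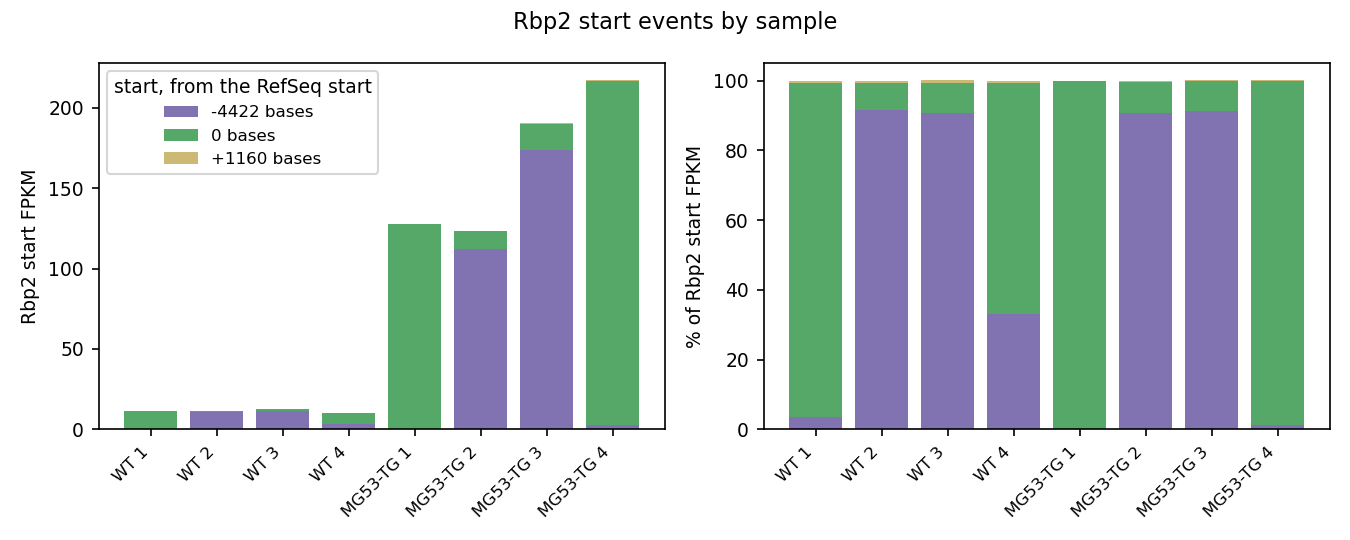
Rbp2 FPKM by transcription start (left) and as percent of its annotated start FPKM (right) in each of the 8 samples, with starts coloured by their distance from the RefSeq start. The total is higher in every MG53-TG sample, and the upstream start holds over 90% in WT samples 2 and 3 and MG53-TG samples 2 and 3 but at most 33.0% in the other samples.

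Bco1 had a single start, at chr8:117095854-117096094, and its end at chr8:117132974-117133720 carried all of its FPKM in 7 samples, with 0.254 FPKM at an earlier end in MG53-TG sample 3. Rdh7 had a single start at chr10:127888301-127888330, and its main end and its form with a retained intron segment carried the same FPKM as the start to within 0.1 FPKM in the 6 samples other than MG53-TG samples 3 and 4. A second Rdh7 form was listed in these samples only, at 0.149 and 0.159 FPKM.

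Promoter sequences from RefSeq (GRCm38.p6), 250 bases before to 50 bases after the RefSeq start, were read for the 4 genes, all of which were higher in MG53-TG. They were searched on both strands for short motifs of nuclear receptors and intestinal transcription factors. All 4 genes matched an entry, Rdh7 and Aldh1a1 with 2 starts each. The sequences of Rbp2 and Bco1 are shown since theirs are the nuclear receptor half-sites closest to a RefSeq start among the 4 genes. That of Rdh7 lies farther off, in a window upstream of the Rdh7 start in the files (chr10:127888301-127888330), and is not shown. The Bco1 start of the files lies near the RefSeq start, whereas for Rbp2 the window covers the start at the RefSeq position and not the one at -4422, which led in WT samples 2 and 3 and MG53-TG samples 2 and 3. The sequence of Aldh1a1 at its downstream start is shown for comparison. Each is written 5′ to 3′ on the strand of the gene, with motif matches in capitals.
Rbp2, GRCm38.p6 chr9:98490287-98490586, plus strand: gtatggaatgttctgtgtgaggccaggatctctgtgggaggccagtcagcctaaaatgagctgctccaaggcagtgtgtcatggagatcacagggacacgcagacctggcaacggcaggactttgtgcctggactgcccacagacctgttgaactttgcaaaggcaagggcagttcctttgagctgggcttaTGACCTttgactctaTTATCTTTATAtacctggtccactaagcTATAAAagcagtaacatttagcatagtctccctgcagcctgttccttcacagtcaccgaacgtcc
Bco1, GRCm38.p6 chr8:117095615-117095914, plus strand: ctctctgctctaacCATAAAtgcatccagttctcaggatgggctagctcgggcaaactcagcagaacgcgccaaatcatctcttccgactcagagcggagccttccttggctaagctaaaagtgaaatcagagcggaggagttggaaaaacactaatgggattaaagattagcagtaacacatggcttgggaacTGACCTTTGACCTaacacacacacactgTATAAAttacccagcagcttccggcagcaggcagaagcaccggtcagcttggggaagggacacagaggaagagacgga
Aldh1a1, GRCm38.p6 chr19:20601718-20602017, plus strand: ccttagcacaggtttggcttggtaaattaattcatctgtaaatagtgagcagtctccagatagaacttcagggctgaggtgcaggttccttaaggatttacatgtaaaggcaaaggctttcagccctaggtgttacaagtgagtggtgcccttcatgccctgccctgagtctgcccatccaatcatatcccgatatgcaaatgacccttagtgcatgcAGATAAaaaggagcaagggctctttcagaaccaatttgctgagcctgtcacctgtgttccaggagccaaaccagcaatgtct

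Positions are counted from the RefSeq start to the first base of the match. AGGTCA, the half-site of RXR heterodimers and HNF4, matched on the opposite strand at -58 in Rbp2 and at -56 and -49 in Bco1. The Bco1 matches form the direct repeat AGGTCANAGGTCA with 1 base between the half-sites, which 13 of 32851 RefSeq promoters hold (0.0396%), whereas the single half-site is held by 16.3%. Rbp2 holds the first half-site only. Rbp2 also held AGATAA, the GATA motif (11.2% of promoters), at -43 on the opposite strand, and TATAAA, the TATA box (13.6% of promoters), at -38 on the opposite strand, overlapping the GATA match, and at -15 on the gene strand. Bco1 held TATAAA at -28 and TTTATG, the CDX motif (11.9% of promoters), at -236 on the opposite strand. Aldh1a1 held AGATAA at -32 at its downstream start and none of the motifs at its upstream start. Rdh7 held AGGTCA at -105 and TTTATG at -208, both on the opposite strand, at the start farther upstream (chr10:127889247) and none at the other. CAAAGTCCA, the HNF4 motif (0.475% of promoters), matched in none of these windows. A match describes letters in a window and not binding.

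The remaining retinoid pathway was described through 51 further genes on 6 lists, of which 39 had a value and 29 passed the filter. Of these 29, 16 were higher in MG53-TG, 6 were lower and 7 were not called (background 15.5% higher and 28.9% lower), with a median log2 fold change of 0.61. With median-of-ratios scaling, where 2220 of all genes were higher and 2197 lower, 15 of the 29 were higher and 3 lower. Cd36, Rdh5, Rdh9 and Adh4 had a WT mean under the filter and passed it only through MG53-TG, so they could only have differed upwards, and Rbp7 passed only through WT.

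**Figure D5:**
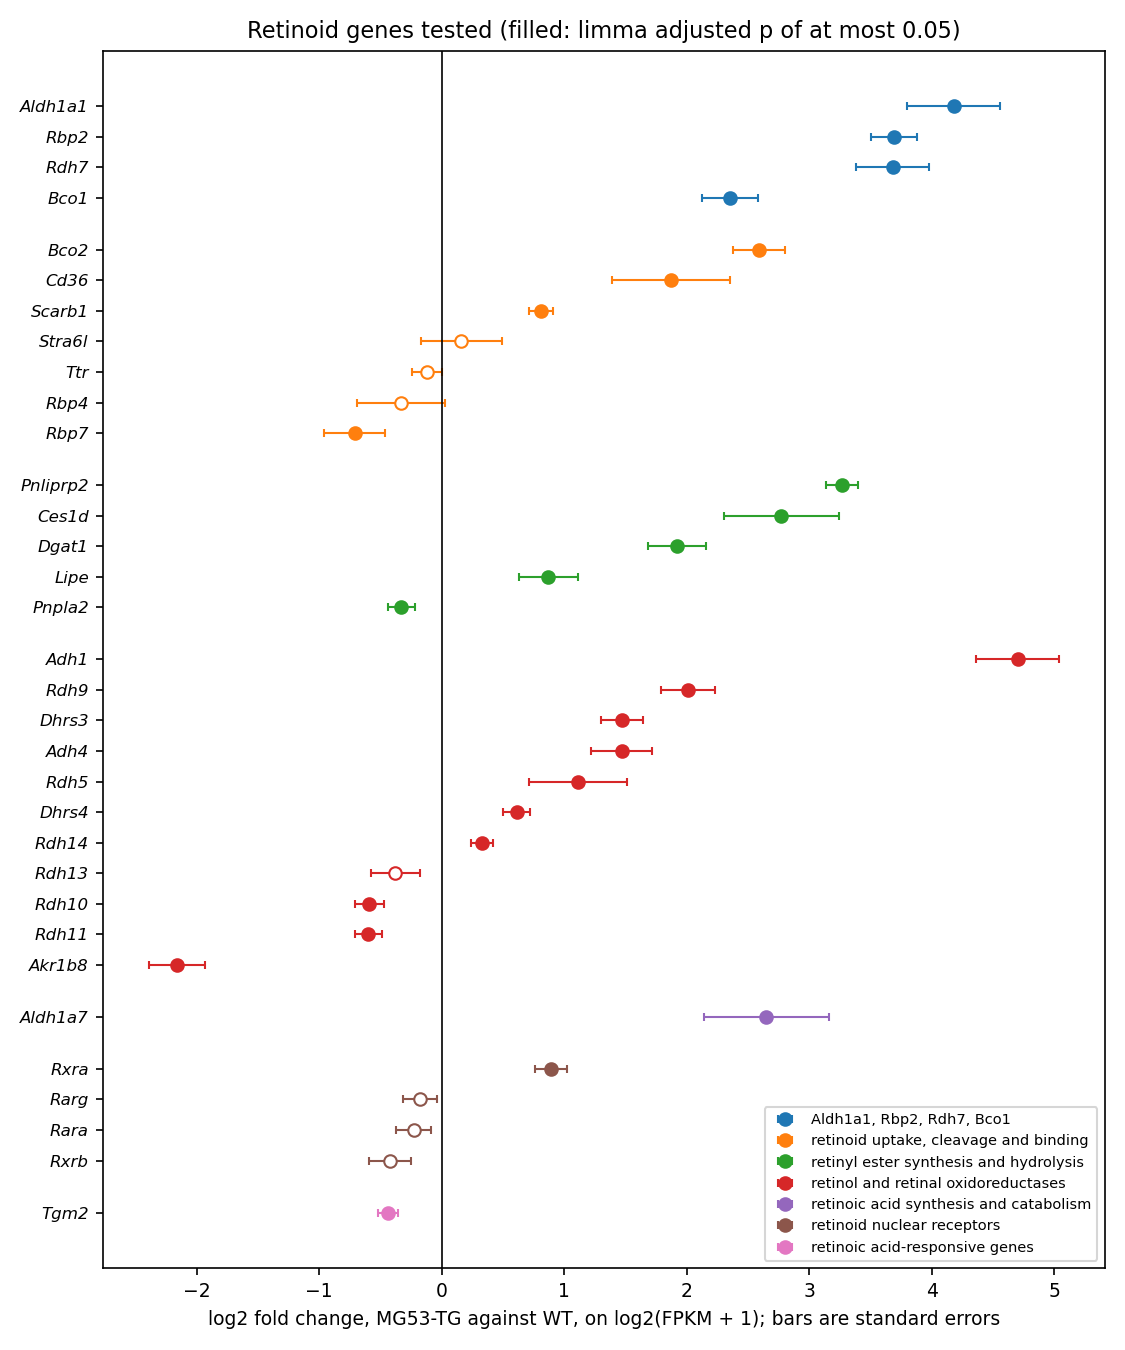
Log2 fold change of MG53-TG against WT on log2(FPKM + 1), with bars for the standard error, for the 4 measured genes of the set and the 29 other retinoid genes tested, grouped by role and coloured by list. Filled circles mark a limma adjusted p of at most 0.05, and the genes of ester handling and alcohol oxidation reach 3.27 (Pnliprp2) and 4.70 (Adh1) beside 2.35 to 4.18 for the set, while the receptors lie between -0.42 and 0.89.

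Among 7 tested genes of uptake, cleavage and binding, 3 were higher, 1 was lower and 3 were not called. Bco2, which cleaves carotenoids off centre and is the closest relative of Bco1, was at 1.66 to 2.23 FPKM in WT and 12.6 to 23.0 FPKM in MG53-TG samples, a log2 difference of 2.59 (SE 0.21, adjusted p = 3.9e-05 in limma). That is close to the change of Bco1, and the coding sequences share 59.9% of aligned bases with no identical run over 14 bases. Scarb1, the scavenger receptor of carotenoid uptake, rose from 25.4 ± 1.62 to 45.5 ± 4.29 FPKM (SD over 4 samples each; log2 fold change 0.81, limma adjusted p = 0.000321) with no overlap. Cd36, a fatty acid and carotenoid transporter, was at most 0.51 FPKM in WT samples and 0.709, 6 and 6.12 FPKM in MG53-TG samples 2, 3 and 4, with no value in sample 1. Its call (log2 fold change 1.87, limma adjusted p = 0.0162) was lost without MG53-TG sample 3 (1.54) or 4 (1.53), or with the missing entry as 0 (1.34). The carriers of retinol in blood, Rbp4 (2.83 and 2.42 FPKM) and Ttr (34.6 and 32.0 FPKM), and the retinol transporter relative Stra6l (5.18 and 6.49 FPKM) were not called, with log2 fold changes of -0.33, -0.12 and 0.16. The sign of all 3 turned without MG53-TG samples 1 and 2. Rbp4 was 0.848 and 0.876 FPKM in MG53-TG samples 1 and 2 but 3.41 and 4.55 FPKM in samples 3 and 4. Rbp7, another retinol-binding protein, had means of 0.932 and 0.144 FPKM with overlapping groups, and its call (log2 fold change -0.71, limma adjusted p = 0.0436) was lost when any 1 of the MG53-TG samples was left out.

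All 5 tested genes of retinyl ester synthesis and hydrolysis were called, 4 higher and 1 lower. Pnliprp2, a pancreatic lipase relative that hydrolyses lipids and retinyl esters, rose from 10.3 ± 2.01 to 107 ± 6.63 FPKM (SD over 4 samples each; log2 fold change 3.27, limma adjusted p = 9.81e-07). Unlike the 4 genes of the set, its MG53-TG samples were close to each other, at 112, 99.8, 104 and 113 FPKM. Ces1d, a carboxylesterase with retinyl ester hydrolase activity, went from 3.15 to 7.97 FPKM in WT to 19.8, 21.9, 64.6 and 83.5 FPKM in MG53-TG samples (log2 fold change 2.77, limma adjusted p = 0.002). Carboxylesterases form a family of near copies, so its level is uncertain. Dgat1, which esterifies retinol besides diacylglycerol, rose from 17.6 ± 5.14 to 68.6 ± 17.3 FPKM (SD over 4 samples each; log2 fold change 1.92, limma adjusted p = 0.000366). Lipe, hormone-sensitive lipase, differed by 0.87 on the log2 scale (adjusted p = 0.0184 in limma) with MG53-TG sample 3 (2.67 FPKM) inside the WT range of 2.22 to 2.68 FPKM, and its call was lost with start events only (0.78) and without MG53-TG samples 1 and 2 (0.63). Pnpla2, adipose triglyceride lipase, had means of 16.2 and 12.7 FPKM (log2 fold change -0.33, limma adjusted p = 0.0417). This call was lost in 7 of the 8 fits that leave out a sample, and among these was kept only without MG53-TG sample 2. It was also lost with median-of-ratios scaling (-0.15), with quantile normalization (-0.18) and with the replicate number as a block.

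Of 11 tested oxidoreductases of retinol and retinal, 7 were higher, 3 were lower and 1 was not called. Adh1, a cytosolic alcohol dehydrogenase that oxidizes retinol, was the most abundant retinoid gene in MG53-TG organoids. It measured 18.8, 21, 26.5 and 17.8 FPKM in WT and 359, 350, 900 and 908 FPKM in MG53-TG samples, a log2 difference of 4.70 (SE 0.34, adjusted p = 2.11e-05 in limma). MG53-TG samples fell into the same pairs as for Aldh1a1. Dhrs3, which reduces retinal to retinol, rose from 4.57 ± 0.345 to 14.8 ± 3.75 FPKM (SD over 4 samples each; log2 fold change 1.47, limma adjusted p = 0.000258). Dhrs4, a peroxisomal retinal reductase, rose from 61.9 ± 7.70 to 94.6 ± 7.39 FPKM (log2 fold change 0.61, limma adjusted p = 0.00268), but the value was 0.21 and not called from end events alone. Rdh9 (0 to 0.444 FPKM in WT, 2.42 to 5.40 in MG53-TG) and Adh4 (0 to 0.0955 FPKM in WT, 0.891 to 3.49 in MG53-TG) rose from very low levels, and Rdh14 rose by 0.33 on the log2 scale. The call of Rdh14 was lost with the replicate number as a block (adjusted p = 0.0515 in limma). Rdh5 had a log2 fold change of 1.11 whose call (limma adjusted p = 0.0476) was lost when any 1 of the WT samples, or MG53-TG sample 3 or 4, was left out. In the other direction, Akr1b8, an aldo-keto reductase active on retinal, fell from 22.0 ± 5.45 to 4.20 ± 1.39 FPKM (SD over 4 samples each; log2 fold change -2.16, limma adjusted p = 0.000157). Rdh10, the main retinol dehydrogenase of retinoic acid synthesis in the embryo, fell from 12.4 ± 1.11 to 7.96 ± 1.02 FPKM (log2 fold change -0.59, limma adjusted p = 0.00473). Rdh11, a retinal reductase, fell from 18.0 ± 1.56 to 11.5 ± 1.21 FPKM (log2 fold change -0.60, limma adjusted p = 0.00265). These 3 genes showed no overlap between groups. Rdh13 was not called at -0.38 on the log2 scale (adjusted p = 0.154 in limma) and passed the threshold without MG53-TG sample 1 (-0.54).

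Retinoic acid synthesis beside Aldh1a1 could be read only from Aldh1a7, a close relative of Aldh1a1 that is not known as a retinaldehyde dehydrogenase. It was at 4.15 to 5.96 FPKM in WT and 18.6, 16.3, 71.5 and 84.0 FPKM in the MG53-TG samples (log2 fold change 2.65, limma adjusted p = 0.00364), and its MG53-TG samples fell into the same pairs as those of Aldh1a1, with which it may share reads. Of the 4 nuclear receptors tested, Rxra, the obligate partner of RAR, PPAR and other receptors, rose from 11.1 ± 1.01 to 21.6 ± 3.21 FPKM (SD over 4 samples each; log2 fold change 0.89, limma adjusted p = 0.000737). Rara (-0.23), Rarg (-0.18) and Rxrb (-0.42) were not called on the log2 scale. Rxrb passed the threshold in 4 of 22 alternatives, among them sample weights (-0.44) and the fit without MG53-TG sample 2 (-0.55). Rara passed it in 1 of 22. Genes induced by retinoic acid could be read from Dhrs3 and Tgm2 only, and they moved in opposite directions. Tgm2, a transglutaminase, was at 19.4 to 20.0 FPKM in WT and 13.7 to 15 FPKM in MG53-TG samples (log2 fold change -0.44, limma adjusted p = 0.00288), a call that was lost with median-of-ratios scaling (-0.26).

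Of 13 transcription factors of the intestinal epithelium, 5 were higher, 5 were lower and 3 were not called, beside 15.5% higher and 28.9% lower over all genes tested. Hnf4g, an enterocyte nuclear receptor, rose from 15.5 ± 0.928 to 97.6 ± 28.6 FPKM (SD over 4 samples each; log2 fold change 2.54, limma adjusted p = 1.6e-05), and Hnf4a, its paralogue, fell from 148 ± 7.88 to 109 ± 8.15 FPKM (log2 fold change -0.44, limma adjusted p = 0.00319). The homeobox factors Cdx1 (log2 fold change -0.50) and Cdx2 (-0.58) fell, the former without a call under median-of-ratios scaling (-0.31). Partners of RXR moved apart, with log2 fold changes of 1.79 for the bile acid receptor Nr1h4, 1.26 for the fatty acid receptor Ppara, 0.27 for the vitamin D receptor Vdr and -0.67 for Pparg. The call of Vdr was lost without MG53-TG sample 3, WT sample 3 or WT sample 4, and that of Pparg with median-of-ratios or quantile scaling. Gata6 rose by 0.68, with values from 0.61 to 1.48 over the alternatives, and kept its call in each. Gata4 (0.16) and Ppard (-0.27) were not called, although Gata4 was called at 0.35 with median-of-ratios scaling.

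Genes with the most similar sample pattern were named by the smallest root-mean-square difference of centred log2(FPKM + 1) from each member over the 8 samples, among 10215 protein-coding genes. The 8 samples fall into groups and share their libraries, so this is a description. Gm8909 and Otop3 had WT means under the filter and could only have resembled a rise. For Rbp2 the most similar genes were the glucose transporter Slc2a2 (0.14), Cyp4v3 (0.16) and the brush border disaccharidase Sis (0.17). For Bco1 they included Ms4a10 (0.16) and Otop3 (0.17). For Rdh7 they were Cyp3a25 (0.16), the xenobiotic receptor Nr1i3 (0.17) and Nat8f6 (0.18), and for Aldh1a1 the sulfotransferase Sult1b1 (0.18), Gm8909 (0.21) and the alcohol dehydrogenase Adh6a (0.21).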

How the data were processed

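Organoid RNA was sequenced in 4 WT and 4 MG53-TG samples. Per the labels and methods, the authors trimmed reads with cutadapt 1.9.1, mapped them with HISAT2 2.0.1 to mm10 and computed FPKM with HTSeq 0.6.1 (DESeq2 is also named). The deposited FPKM are given per transcript event (start, end, splice form) by a tool not given in the sources used here. The smallest value is 1e-06, so whole reads could not be recovered and depth is unknown. Of 128369 events, 89.2% matched exon boundaries of the named gene in GENCODE (GRCm38), 4.93% those of another gene, to which they were given, and 5.87% were not placed. The files repeated 16032 rows exactly, which were dropped. A gene's value was the sum of its start events, or of its end events where their mean was higher. An absent entry counted as missing if the median of the remaining 3 samples in the group reached 0.5 FPKM, and as 0 otherwise.

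Groups were compared on log2(FPKM + 1) with limma 3.58.1 (lmFit, eBayes with trend; R 4.3.3) over the 10846 genes averaging 0.5 FPKM or more, with Benjamini-Hochberg adjustment over all of them and a threshold of 0.05. This scale understates changes of low genes. Single values had an exact two-sided permutation test over 70 relabellings. On simulated data over 10513 genes, this fit recovered 58.3% of genes raised by 1, 70.0% lowered by 1, 98.0% raised by 2 and 100% raised by 3 on the log2 scale, with 14 unchanged genes called. In that simulation 200 genes were changed, all with a WT mean log2(FPKM + 1) above 1, and both groups had the same independent spread. In the data 44.4% of genes were called and the MG53-TG samples fell into pairs, so these rates need not hold there. Promoters and coding sequences were read with Biopython 1.88, and the rest was done in Python 3.11.15.

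The genes and lists were chosen with earlier results of these data known. Named were the set, Trim72, genes of the retinoid and transcription factor lists with a value, the 3 most similar genes for each member, and Dpp4, Vil1, Col1a2, Col3a1, Cd68, Slc15a1, Slc51a, Defa22, Slc10a2 and Fgf15 after their values were seen. The values of some genes named by this rule are not reported here. Alternatives changed the pseudocount (0.1), the filter (none, or 2 FPKM), scaling, weights, replicate block, event choice, absent entries and samples, and 7 more were added after seeing the data.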

Additional observations from a re-analysis of the deposited data

Results flagged for a closer look

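In 91 groups of 4 samples (the 4 genes of the set, the other retinoid genes and the transcription factors), 4 single values lay far from the other 3 by Dixon's criterion, where chance alone gives about 4.55. Ttr was 37.9 FPKM in WT sample 3, against 33.3 to 33.8 FPKM in the other WT samples. Rdh10 was 14.1 FPKM in WT sample 3, against 11.7 to 12.1 FPKM. Ppard was 7.24 FPKM in WT sample 3, against 3.24 to 3.77 FPKM. Adh4 was 0.0955 FPKM in WT sample 1 and listed at 0 or absent in the other WT samples. No value of Rbp2, Bco1, Rdh7 or Aldh1a1 was among them.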

How the results depend on the processing

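Rbp2, Bco1, Rdh7 and Aldh1a1 kept their direction and stayed past the threshold in each alternative that gave them a value, with log2 fold changes of 3.35 to 4.04, 1.93 to 2.80, 3.13 to 4.24 and 3.42 to 4.94. Aldh1a1 has no start event, so 3 of the 4 were called with start events only. Relative to the median of all genes, they lay at 3.86, 2.52, 3.85 and 4.35, and at 3.88, 2.51, 3.86 and 4.37 with median-of-ratios scaling. The count of all genes called ranged from 3583 (end events only) to 5872 (without MG53-TG samples 1 and 2), and from 3831 to 5119 when 1 sample was left out, and that of the 29 other retinoid genes from 18 to 23. Of these 29, 15 kept their direction and call in each alternative, as did 8 of the 13 transcription factors.

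Signs turned for Ttr with median-of-ratios scaling (0.07) and without MG53-TG samples 1 and 2 (0.04), for Rbp4 (0.38) and Stra6l (-0.46) without these samples, and for Stra6l without 1 sample (-0.08 to 0.43). Ttr was called at -0.28, Rbp4 at -1.03 and Stra6l at 0.78 without MG53-TG samples 3 and 4. Relative to enterocyte markers, Bco1 turned to 1.25 with Vil1 alone, and Aldh1a1 moved to 1.04 without MG53-TG samples 3 and 4 and to 2.09 without samples 1 and 2. The Rbp2 start share changed by -5.97 to 26.4 percentage points without 1 sample. The cause was not tested in any of these. Leaving out 1 sample, the exact test allows no p below 0.0571, so relative values were compared there by size only, with 1.01 to 1.14 for Rbp2, -0.37 to -0.18 for Bco1, 0.93 to 1.18 for Rdh7 and 1.39 to 1.76 for Aldh1a1.

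Same-numbered WT and MG53-TG samples did not deviate together (correlations of -0.0518 to 0.095). The MG53-TG deviations include the split of samples 1 and 2 from 3 and 4, so these correlations cannot settle whether same-numbered samples were paired. The paper names a paired t test for marker genes of the organoid transcriptome, but the labels give only a number. With the replicate number as a block, 4395 genes were called, the 4 genes of the set kept 3.69, 2.35, 3.68 and 4.18, and 20 other retinoid genes were called. In pairs, the relative values were 1.08 for Rbp2, -0.26 for Bco1, 1.07 for Rdh7 and 1.57 for Aldh1a1, with no exact p below 0.125 possible. Among WT samples, 1 of 4 correlated best with its own number. Depth is unknown, which limits what can be said of genes near 0.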
